A study of Homo sapiens with 4 samples.

Results

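The transcripts of cholesterol and fatty acid synthesis were examined in HEK293T cells, a transformed human embryonic kidney line, with and without MORC2. The set comprised 31 genes of the SREBP pathway, taken by name, and all 31 were found by Entrez identifier among the 28775 genes of the count table. MORC2 is an ATPase of the MORC family that binds DNA and works with the HUSH silencing complex, and ACLY, one of the 31 genes, encodes an enzyme reported to bind MORC2. Polyadenylated RNA was sequenced from 4 libraries. The 2 MORC2 KO libraries came from cells electroporated with Cas9 protein and a gRNA against MORC2, gRNA 1 for replicate 1 and gRNA 2 for replicate 2, and the 2 WT libraries came from HEK293T cells with intact MORC2. Each KO culture was a bulk population with its own gRNA and not a clone, so edited and unedited cells could be mixed in it. No drug, sterol or lipid treatment was labelled for any library. The KO libraries held 59803625 (replicate 1) and 64312514 (replicate 2) counts on genes, and the WT libraries 60331708 and 53970043. The 31 genes took 0.579% and 0.608% of the counts in the KO libraries and 0.586% and 0.594% in the WT libraries.

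Cells make cholesterol from acetyl-CoA through mevalonate, squalene and lanosterol, and they make fatty acids from the same acetyl-CoA. The transcription factors SREBP-1 and SREBP-2, encoded by SREBF1 and SREBF2, raise the genes of both routes together. Both factors are held in the endoplasmic reticulum with SCAP. When sterols are scarce, SCAP carries them to the Golgi for cleavage, and when sterols are plentiful, the INSIG proteins retain SCAP. INSIG1 is itself a target of SREBP, and its transcript is known as a sensitive readout of the pathway.

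MORC2 itself was lower in both KO libraries. Its gene lies on the minus strand of T2T-CHM13v2.0 at chr22:31388696-31432332. Its level in CPM, the count relative to the library size scaled by TMM factors, was 51.2 in KO replicate 1 and 55.0 in KO replicate 2, against 86.2 and 87.7 in the WT libraries, so the genotypes did not overlap. The mean in the KO was 61.1% of that in the WT, with a log2 fold change of -0.71 (SE 0.060, adjusted p = 1.37e-04, edgeR quasi-likelihood F-test). An edited transcript can persist as RNA, and in bulk cells a smaller share of cells with the transcript and less of it per cell cannot be told apart. MORC2 shares 23.3% of its exon bases with its antisense gene MORC2-AS1, and read pairs over both genes were not counted.

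KO replicate 2 stood apart from the other libraries. Over all tested genes, the median absolute log2 difference was 0.12 between the KO libraries, 0.076 between the WT libraries, and 0.14 and 0.16 between KO replicate 2 and each WT library. Over the 31 genes it was 0.061 between the KO libraries and 0.042 between the WT libraries. KO replicate 2 differed from the WT libraries by 0.093 and 0.083 over these genes, and KO replicate 1 by 0.042 and 0.040. Over these genes, KO replicate 1 was thus as near to the WT libraries as these were to each other, so the comparison is given below for both KO libraries together and for each alone.

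The lipid synthesis genes changed little with MORC2 KO. Of the 31 genes, all of which passed the filter on low counts, 0 were called at an adjusted p under 0.05, where 0.618% of the 16675 tested genes were called. At an unadjusted p under 0.05 there were 2 of the 31 genes, INSIG1 and ACAT2, against 2387 of all tested genes, and DESeq2 also called 0 of the 31, with 3 at an unadjusted p under 0.05. The log2 fold changes ran from -0.16 in ACAT2 to 0.18 in TM7SF2, with 15 above 0 and 16 below. The estimate of TM7SF2 went from 0.11 without WT replicate 1 to 0.25 without WT replicate 2, and 0 of the 31 genes were called in either fit. Their median was -0.0073, beside 0.0054 over all tested genes. Summed over the 31 genes, the level was 5792 and 5916 CPM in the KO libraries and 5944 and 6025 CPM in the WT libraries. By this sum both KO libraries lay just below the WT libraries, whereas by the share of raw counts given above they lay on both sides. The mean level in the KO lay between 89.6% and 113.1% of the mean level in the WT for every one of the 31 genes. Without KO replicate 2 the fit still called 0 of the 31, and the fold changes then ran from -0.14 to 0.13. Without KO replicate 1 it called 5, INSIG1 higher at 0.22 (adjusted p = 0.0049) and EBP (adjusted p = 0.0025), ACAT2 (adjusted p = 0.0082), SCD (adjusted p = 0.023) and NSDHL (adjusted p = 0.025) lower, where 8.16% of the 17129 genes tested in that fit were called higher and 12.4% lower (20.5% in all), so this count is near the background. The lone KO library is there assumed to vary like the WT libraries.

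**Figure D1:**
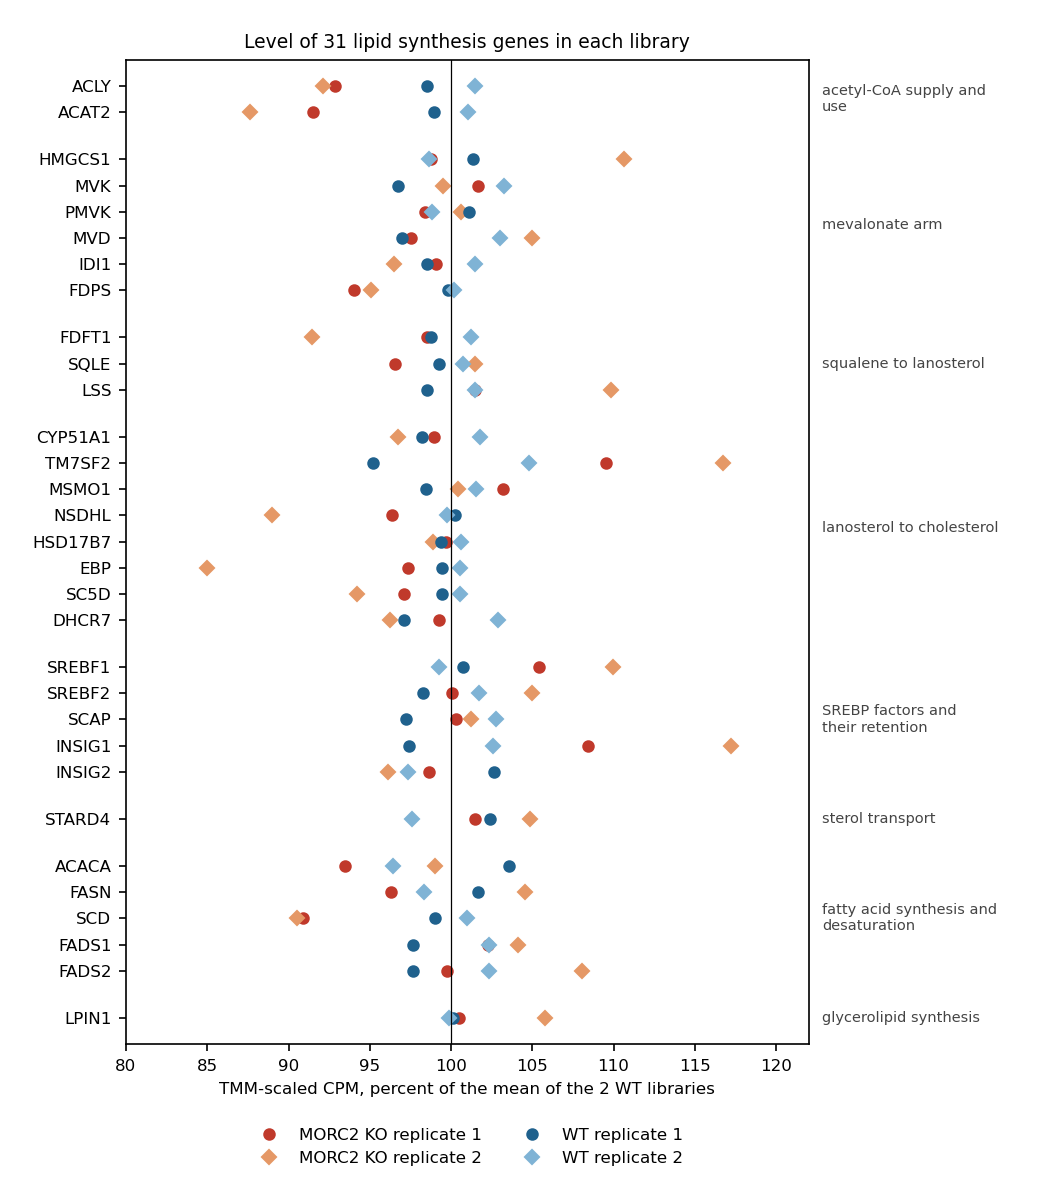
Level of each of the 31 genes in each library, as TMM-scaled CPM in percent of the mean of the 2 WT libraries, with genes grouped by their step in the pathway. Circles are replicate 1 and diamonds replicate 2, red and orange for MORC2 KO and dark and light blue for WT. The KO means lie between 89.6% and 113.1%, and the points farthest from 100% are mostly those of KO replicate 2.

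The intervals of the fit were narrow enough to bound small changes. Between 569 and 58804 read pairs were counted per gene and library, and 30 of the 31 genes had at least 1000 in each library. The standard errors of the log2 fold changes ran from 0.056 to 0.093. All 31 of the 95% intervals lay within 0.5 of 0 on the log2 scale, and 26 lay within 0.25, which is a 1.19-fold change. The interval bounds farthest from 0 were -0.28 in ACAT2 and 0.38 in TM7SF2. TM7SF2 encodes a sterol reductase that acts after lanosterol and had the fewest counts, between 569 and 787. These intervals rest on 2 libraries per genotype and 2 residual degrees of freedom, with the spread moderated over all genes.

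**Figure D2:**
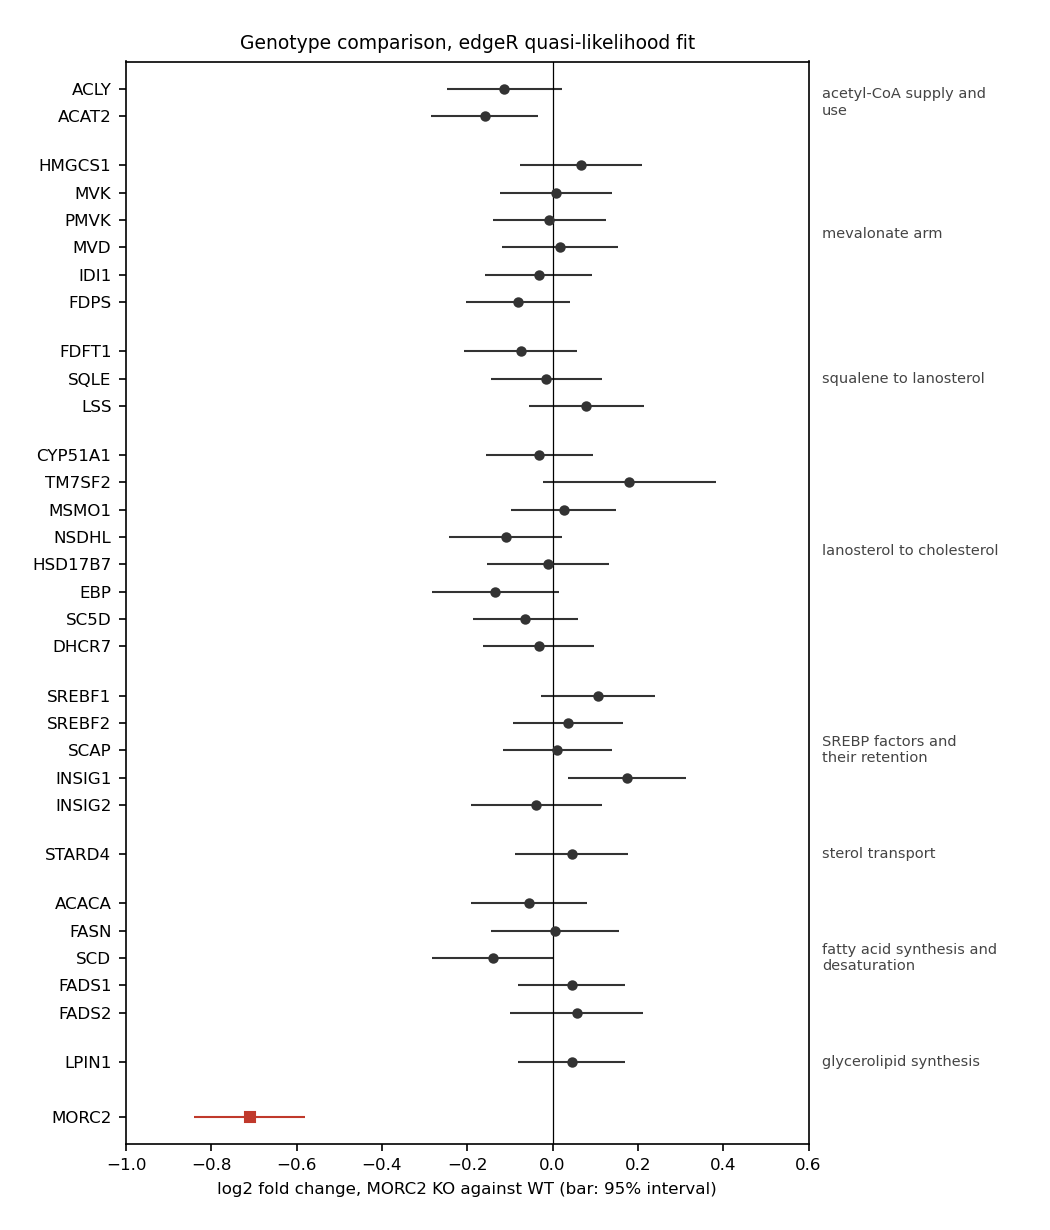
Log2 fold change of MORC2 KO against WT for the 31 genes (black circles) and for MORC2 (red square), with 95% intervals from the edgeR fit. The 31 estimates lie between -0.16 and 0.18 while MORC2 lies at -0.71, and its interval overlaps none of theirs.

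The start regions of these genes hold motifs that the choice of genes did not use. SREBP binds a sterol regulatory element and, as a basic helix-loop-helix protein, an E-box, and it acts with the factor NF-Y, which binds CCAAT. The 300-base windows of RefSeq on GRCh38.p14, from 250 bases before to 50 after a start, were searched on both strands. Windows were held for 27 of the 31 genes, and some genes had more than 1 start, which gave 39 windows. FDFT1, SQLE, FASN and ACAT2 had no window. CCAAT was found in 24 of the 39 windows (61.5%), against 34.6% of all 35116 windows. By gene, 20 of the 27 had it (74.1%), against 42.4% of the 12805 tested genes with a window. CACGTG was found in 5 windows (12.8%, against 7.26% of all), those of INSIG1, LSS, SC5D and SCAP. TCACNCCAC was found in 1 window (2.56%, against 1.13% of all), that of SREBF2. Over the 18418 windows of tested genes alone, the shares were 34.3% for CCAAT, 9.05% for CACGTG and 1.03% for TCACNCCAC. Counted by gene, CACGTG was found in 14.8% of the 27 genes against 12.1% of tested genes, which is close to the background. No motif of the 3 contains another, and CACGTG reads the same on both strands. The examples below were chosen to show the SREBF2 element and the motifs of the genes described most closely here, each read 5′ to 3′ on the strand that holds the motif as written, with the motif in capitals.
SREBF2, sterol regulatory element, chr22:41832962-41832990, plus strand: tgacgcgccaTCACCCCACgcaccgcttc
SREBF2, CCAAT, chr22:41832989-41833013, minus strand: ctcatctcagCCAATgggcgagcga
INSIG1, CCAAT, chr7:155297698-155297722, minus strand: gcggccgcaaCCAATgggaggccgg
INSIG1, E-box, chr7:155297813-155297838, plus strand: cgggcaggctCACGTGatgcgggccc
ACLY, CCAAT, chr17:41919031-41919055, minus strand: acgcgtgtggCCAATcgcggggccg
SCD, CCAAT, chr10:100347037-100347061, plus strand: ttcccttcggCCAATgacgagccgg
EBP, CCAAT, chrX:48521728-48521752, minus strand: ccgctcccaaCCAATagacactctc
Counted from the start, the SREBF2 element is centred at base -129 and its CCAAT at -104, and the INSIG1 motifs at -168 and -52. A match of letters is a description and does not show that a factor binds there. A window without a match to these exact letters may still hold a variant of the motif. The median log2 fold change was -0.00066 over the 20 genes with CCAAT and 0.011 over the 7 without it.

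Among the SREBP factors and the proteins that retain them, INSIG1 had the largest estimate. The 5 genes summed to 752 and 789 CPM in the KO libraries and to 713 and 743 CPM in the WT libraries, and most of the difference was in INSIG1 and SREBF2. INSIG1, the retention protein at T2T-CHM13v2.0 chr7:156473431-156485788, was measured at 281 and 304 CPM in the KO libraries and at 253 and 266 CPM in the WT libraries. Both KO libraries lay above both WT libraries, and the means were 293 ± 16.2 CPM and 260 ± 9.57 CPM (SD, n = 2). The log2 fold change was 0.17 (SE 0.064), and with an adjusted p of 0.268 it was not called. INSIG1 was called under a crossed replicate pairing that was added after seeing the data. That pairing called 903 higher and 809 lower of all 16675 tested genes, so the INSIG1 call is no added support. INSIG1 shares 14.3% of its exon bases with the divergent transcript INSIG1-DT.

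SREBF1, which encodes the factor of fatty acid synthesis, was at 35.1 and 36.6 CPM in the KO libraries and at 33.5 and 33.0 CPM in the WT libraries. The genotypes did not overlap, yet the log2 fold change of 0.11 (adjusted p = 0.445) missed the threshold. SREBF2, whose product drives cholesterol synthesis and whose window holds the sterol regulatory element shown above, was at 236 and 248 CPM in the KO libraries and at 232 and 240 CPM in the WT libraries. Here the genotypes overlapped. The escort protein SCAP ran from 173 to 182 CPM over the 4 libraries and INSIG2, the second retention protein, from 20.8 to 22.2 CPM. The KO values of SCAP lay inside the range of its WT values. For INSIG2 the lowest KO value was just below both WT values.

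The 2 genes that make and first use cytosolic acetyl-CoA lay lower in both KO libraries than in both WT libraries, as did 23.4% of all tested genes. Together they summed to 678 and 668 CPM in the KO libraries and to 723 and 743 CPM in the WT libraries. ACLY, the ATP citrate lyase that makes cytosolic acetyl-CoA from citrate, was at 538 and 534 CPM in the KO libraries and at 571 and 588 CPM in the WT libraries. The KO mean was 92.5% of the WT mean, with a log2 fold change of -0.11 (SE 0.062, 95% interval from -0.25 to 0.022, adjusted p = 0.426), which became -0.026 with loess offsets on abundance. ACAT2, the cytosolic thiolase that joins acetyl-CoA units, was at 140 and 135 CPM in the KO libraries against 152 and 155 CPM in the WT libraries. Its log2 fold change was -0.16 (SE 0.057) and its adjusted p was 0.261, the smallest of the 31 genes. ACAT2 shares 30.3% of its exon bases with another gene, where read pairs were not counted for either. Neither gene was called in MORC2 KO against WT. ACAT2 was called under the crossed replicate pairing added after seeing the data. That pairing called 903 higher and 809 lower of all 16675 tested genes, so the ACAT2 call is no added support.

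The mevalonate arm, from HMG-CoA to farnesyl diphosphate, was level between genotypes. The summed level of its 6 genes was 732 and 761 CPM in the KO libraries and 746 and 752 CPM in the WT libraries. The KO sums lay on both sides of the WT sums. HMGCS1, the HMG-CoA synthase that opens the arm, was at 228 and 255 CPM in the KO libraries and at 234 and 227 CPM in the WT libraries. KO replicate 2 alone was high. FDPS, the farnesyl diphosphate synthase, was at 171 and 173 CPM in the KO libraries against 182 and 183 CPM in the WT libraries, with no overlap and an adjusted p of 0.523. FDPS shares 31.1% of its exon bases with another gene. The kinases MVK and PMVK, the decarboxylase MVD and the isomerase IDI1 overlapped between genotypes, and their log2 fold changes ran from -0.032 to 0.018.

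The genes from squalene to lanosterol held 1 estimate above 0 and 2 below, and summed to 702 and 722 CPM in the KO libraries and 704 and 720 CPM in the WT libraries. FDFT1, the squalene synthase, was at 193 and 179 CPM in the KO libraries and at 193 and 198 CPM in the WT libraries. KO replicate 1 was close to the WT libraries and KO replicate 2 was below them. LSS, which closes the ring of lanosterol, was at 226 and 245 CPM in the KO libraries and at 220 and 226 CPM in the WT libraries. Again KO replicate 2 was the library that stood off. SQLE, the squalene epoxidase and a rate-limiting step, ran from 283 to 298 CPM, with a log2 fold change of -0.014.

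Of the 8 genes from lanosterol to cholesterol, 2 had estimates above 0 and 6 below, and their sum was 798 and 766 CPM in the KO libraries against 793 and 818 CPM in the WT libraries. EBP, the sterol isomerase at T2T-CHM13v2.0 chrX:47930820-47937730, was at 93.4 and 81.5 CPM in the KO libraries against 95.4 and 96.5 CPM in the WT libraries. KO replicate 1 was just below the WT libraries and KO replicate 2 well below. The KO mean of 87.5 ± 8.37 CPM (SD, n = 2) had a larger spread than the WT mean of 95.9 ± 0.734 CPM, and the adjusted p was 0.388. NSDHL, a sterol dehydrogenase, had the same order, with 59.3 and 54.8 CPM in the KO libraries and 61.7 and 61.4 CPM in the WT libraries. TM7SF2 was at 11.2 and 11.9 CPM in the KO libraries against 9.71 and 10.7 CPM in the WT libraries. SC5D, a sterol desaturase, lay lower in both KO libraries, with a log2 fold change of -0.064. The SC5D estimate was -0.099 without KO replicate 1, -0.040 without KO replicate 2 and -0.024 with library size alone. The demethylating enzymes CYP51A1 and MSMO1, the reductase HSD17B7 and the last reductase DHCR7 overlapped between genotypes, with log2 fold changes from -0.033 to 0.026.

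Among the fatty acid genes, SCD was lower in both KO libraries and the others overlapped. The 5 genes summed to 2020 and 2097 CPM in the KO libraries and to 2156 and 2143 CPM in the WT libraries, a gap that came mostly from SCD. SCD, the desaturase that makes oleic acid from stearic acid, was at 894 and 890 CPM in the KO libraries and at 973 and 993 CPM in the WT libraries. The KO libraries lay close together, and the KO mean was 90.7% of the WT mean. Its log2 fold change was -0.14 (SE 0.065, adjusted p = 0.351), and it became -0.043 with loess offsets on abundance. FASN, the fatty acid synthase, was at 748 and 812 CPM in the KO libraries and at 789 and 764 CPM in the WT libraries. The KO values enclosed the WT values, and the log2 fold change was 0.0061. ACACA, the acetyl-CoA carboxylase that commits acetyl-CoA to fatty acids, had a log2 fold change of -0.055, and the desaturases FADS1 and FADS2 had 0.045 and 0.056. LPIN1, a phosphatidate phosphatase, and STARD4, a sterol carrier, had 0.045 each. With 1 library left out, ACACA ran from -0.11 to -0.0040, FADS1 from 0.010 to 0.080 and FADS2 from -0.0013 to 0.099. LPIN1 then ran from 0.0084 to 0.068 and STARD4 from 0.011 to 0.079.

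Counted by whether the libraries overlapped, 5 genes were higher in both KO libraries than in both WT libraries (LSS, TM7SF2, SREBF1, INSIG1 and LPIN1), while 24.1% of all tested genes were. A further 8 genes were lower in both (ACLY, ACAT2, FDPS, FDFT1, NSDHL, EBP, SC5D and SCD), while 23.4% of all tested genes were, and 18 genes overlapped. Both counts were near the background, so they are not a result about these genes. With library size alone in place of TMM factors, 9 genes were higher (32.0% of all tested genes) and 7 lower (15.7%), and FDFT1 then overlapped.

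The sizes of the estimates were set beside those of other genes. The median absolute log2 fold change was 0.045 over the 31 genes, 0.10 over all tested genes, and 0.074 over the 9488 tested genes whose mean CPM lay within the range of the 31, from 10.9 to 938. Of all tested genes, 28.6% had an absolute estimate above that of TM7SF2. Only the range of CPM was matched, and not the levels within it. The median of the mean CPM was 150 over the 31 genes and 18.5 over all tested genes. These values describe the libraries and no test was made of them.

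**Figure D3:**
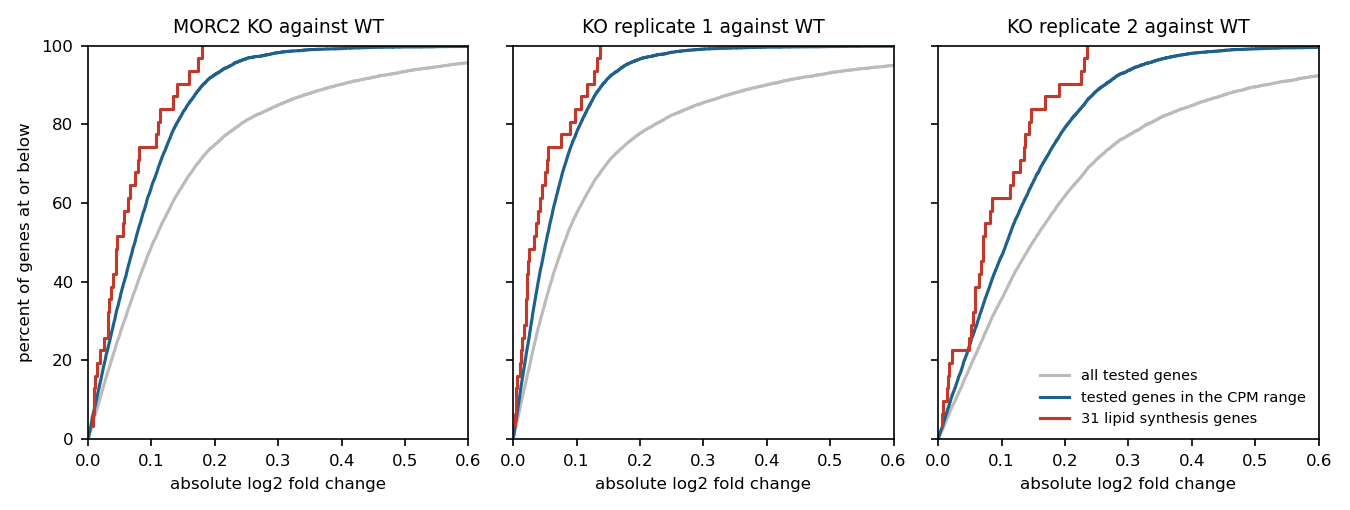
Percent of genes at or below each absolute log2 fold change, for both KO libraries together and for each KO library against WT. Red is the 31 lipid synthesis genes, blue the 9488 tested genes in the same CPM range and grey all 16675 tested genes, and the axis ends at 0.6, past which some tested genes lie. The red medians are 0.045, 0.032 and 0.070 from left to right, and the curves of KO replicate 2 reach farther to the right.

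Each KO library was then compared with the WT pair. Such a fit has 1 residual degree of freedom, from the WT pair, so the lone KO library is assumed to vary as the WT libraries do, and both contrasts share the WT libraries. For KO replicate 1, 0 of the 31 genes were called, where 0.582% of all tested genes were, and 4 had an unadjusted p under 0.05, against 1565 of the 16675 tested genes. The smallest adjusted p was 0.355, in SCD. For KO replicate 2, 5 of the 31 genes were called, where 18.8% of all tested genes were called and 26.3% of those in the same CPM range. The called genes were no more frequent among the lipid synthesis genes than among all tested genes.

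The gene that rose in KO replicate 2 was INSIG1, with a log2 fold change of 0.23 (SE 0.052, adjusted p = 0.0062), where 8.47% of all tested genes were called higher. The same contrast called 10.3% of all tested genes lower. The 4 lipid synthesis genes that fell were EBP at -0.23 (adjusted p = 0.0064), ACAT2 at -0.19 (adjusted p = 0.018), NSDHL at -0.17 (adjusted p = 0.044) and SCD at -0.14 (adjusted p = 0.0498). SCD was lost from the calls, and HMGCS1 gained at 0.15, with the newer edgeR form (adjusted p = 0.0488) or with at least 10 counts in every library (adjusted p = 0.0445). In KO replicate 1 the same genes had log2 fold changes of 0.12 for INSIG1, -0.039 for EBP, -0.13 for ACAT2, -0.053 for NSDHL and -0.14 for SCD. These contrasts share the WT libraries, so a like value in both is no independent support. In 25 of the 31 genes the absolute estimate was larger in KO replicate 2 than in KO replicate 1, as it was in 69% of all tested genes.

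The KO libraries were also compared with each other, 1 library against 1, with the whole spread taken from the WT pair, so both are assumed to vary as the WT libraries do. Between KO replicate 2 and KO replicate 1, 0 of the 31 genes were called, where 0.858% of all tested genes were, and 2 had an unadjusted p under 0.05, against 2922 of all tested genes. These were EBP, at -0.20 (adjusted p = 0.109), and HMGCS1, at 0.16 (adjusted p = 0.158). With RLE in place of TMM factors EBP was called, at -0.20. The share of all tested genes called in that fit was not counted, so the call is not a result about EBP.

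The pathway ran at very different transcript levels from step to step. Levels per kilobase of exon (TMM-scaled FPKM, mean of the 4 libraries) went from 5.80 in INSIG2 to 179 in SCD, with a median of 41.9. After SCD came ACLY at 128, FDPS at 116 and SQLE at 98.6, and the ranges of the first 4 genes over the libraries did not overlap. FDPS shares 31.1% of its exon bases with another gene, where pairs were not counted, so its level may be understated. The place of FDPS below ACLY, which shares 0%, is therefore less certain. SQLE, FASN, INSIG1, EBP, ACAT2 and DHCR7 followed, from 98.6 down to 75.5, each overlapping the next. CYP51A1 at 63.5 stood apart from both neighbours. LSS, FDFT1, IDI1, MSMO1, HMGCS1, SCAP and SREBF2 formed a run of overlapping levels from 45.7 to 41.5.

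The lower part of the order held early and late steps alike. FADS1 and MVD overlapped at 34.4 and 33.6, followed by NSDHL at 31.2, PMVK at 27.3 and ACACA at 18.9. SC5D, MVK and HSD17B7 lay between 14.4 and 14.0 and LPIN1 at 10.3. STARD4, TM7SF2, SREBF1 and FADS2 lay between 7.13 and 6.48 and overlapped in turn. The level of SREBF2 was 41.5, against 6.72 for SREBF1, and that of INSIG1 was 89.8, against 5.80 for INSIG2. These orders stand on lengths of all annotated exons, and transcripts that use fewer exons would have higher levels per length. The lengths include bases shared with other genes, so levels of genes such as FDPS, ACAT2 and INSIG1 may be understated.

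**Figure D4:**
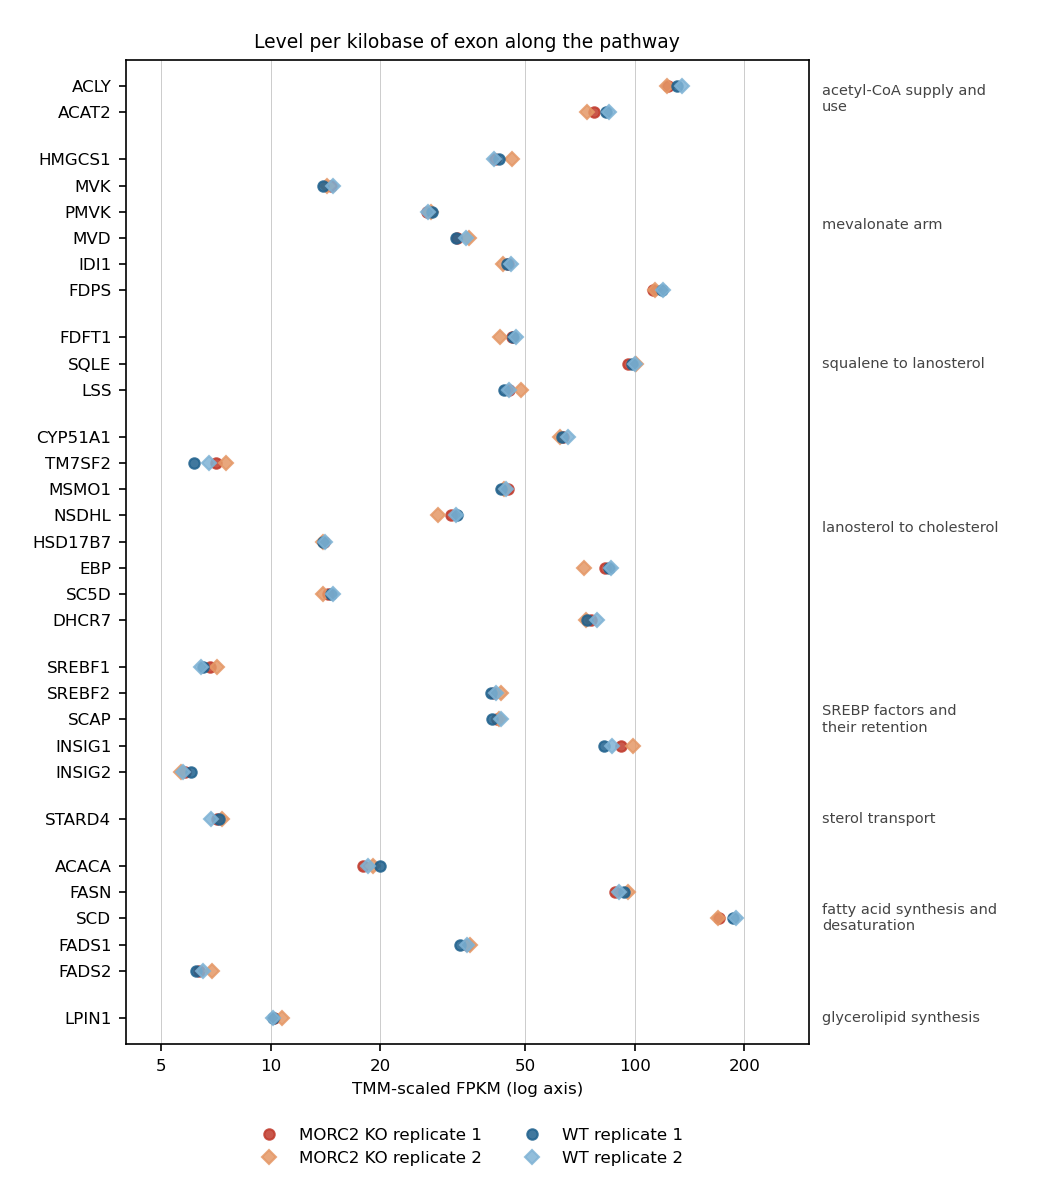
TMM-scaled FPKM of each gene in each library, on a log axis, with genes ordered by their step in the pathway and marked as circles (replicate 1) or diamonds (replicate 2), red and orange for MORC2 KO and blue for WT. Levels span from 5.80 to 179 on average. The 4 libraries of a gene sit together compared with this whole span, while many genes overlap the next in level.

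Further genes of lipid metabolism were taken from 8 lists with 81 genes, of which 80 passed the filter and OLAH did not. In MORC2 KO against WT 0 of the 80 were called, 8 had an unadjusted p under 0.05 (2387 of all tested genes did), 31 estimates were above 0 and 49 below, and the median log2 fold change was -0.029, which became 0.010 with library size alone. DESeq2 likewise called 0 of the 80, with 5 at an unadjusted p under 0.05, whereas 22 were called without KO replicate 1, where 20.5% of all tested genes were. The SREBP processing list holds the protease MBTPS1, which makes the first cut in SREBP, at 133 and 145 CPM in the KO libraries and 127 and 131 CPM in the WT libraries. The log2 fold change of MBTPS1 was 0.11 (adjusted p = 0.447). In the list of other fatty acid synthesis, activation and elongation genes, 3 of 21 estimates were above 0 and the median was -0.071, with 7 above 0 and a median of -0.032 under library size alone. The median was -0.020 with 0 called without KO replicate 2, and -0.098 with 5 called without KO replicate 1, where 20.5% of all tested genes were called. Of that list, 10 genes were lower in both KO libraries, where 23.4% of all tested genes were, and 0 were higher, a difference from the background that was not tested. SLC25A1, the carrier that exports the citrate used by ACLY, was at 97.0 and 92.7 CPM in the KO libraries and at 103 and 108 CPM in the WT libraries. With a log2 fold change of -0.15 and an adjusted p of 0.276, SLC25A1 was not called.

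**Figure D5:**
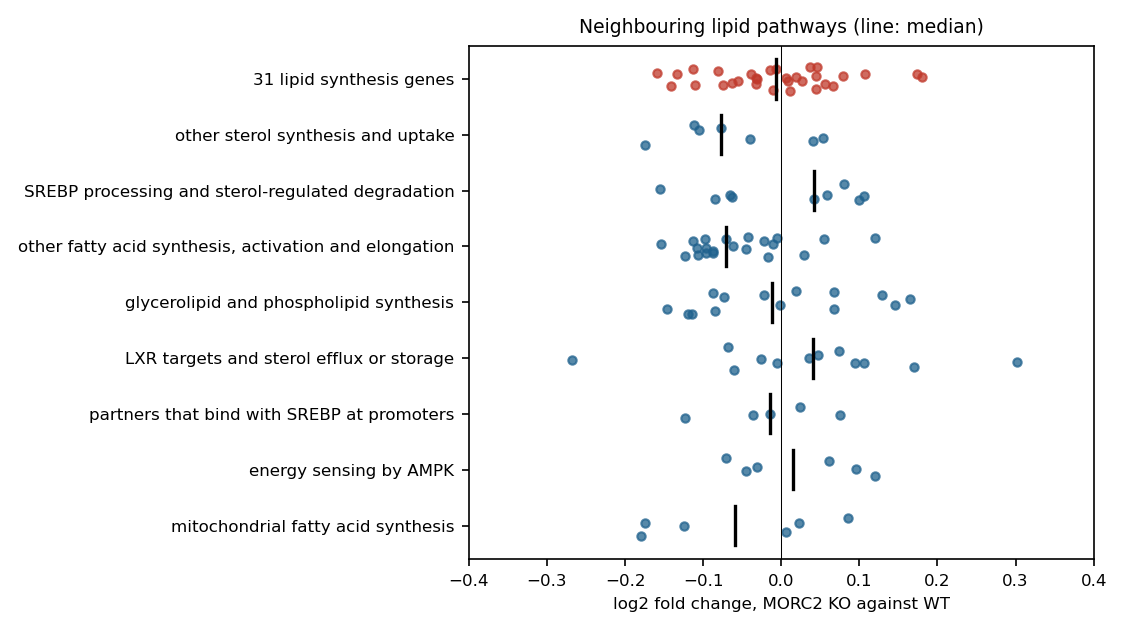
Log2 fold change of MORC2 KO against WT for the 31 lipid synthesis genes (red) and for each of 8 further lists (blue), 1 point per gene with random vertical spread and a black line at the median. Points lie between -0.27 and 0.30, and 0 genes of any list were called.

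Against the WT pair, KO replicate 1 had 0 called genes among the 80, with 6 at an unadjusted p under 0.05 (1565 of all tested genes), and KO replicate 2 had 19, 3 higher and 16 lower, where 8.47% and 10.3% of all tested genes were. The higher genes were MBTPS1, the acyltransferase AGPAT3 and the phosphatase LPIN2, with log2 fold changes of 0.17, 0.18 and 0.25. In sterol synthesis, the genes that fell included ERG28 (-0.23) and NUS1 (-0.16). ERG28 is a scaffold of the demethylation enzymes, and NUS1 is a subunit of the enzyme that makes dolichol. In fatty acid synthesis and elongation, SLC25A1 (-0.19), ELOVL4 (-0.20), HACD3 (-0.16) and TECR (-0.22) fell. Among glycerolipid genes, GPAM fell by 0.17 and AGPAT1 by 0.16 on the log2 scale.

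Further genes called lower in KO replicate 2 were spread over the remaining lists. Among them were TMED2 (-0.16) and PGRMC1 (-0.24), the NF-Y subunit NFYA (-0.22), the AMPK subunit PRKAB1 (-0.18), and MCAT (-0.20) and NDUFAB1 (-0.29) of mitochondrial fatty acid synthesis. LPCAT3, an acyltransferase and LXR target, was also called at -0.36, but it shares 67.4% of its exon bases with another gene. NFYA was at 89.6 and 79.0 CPM in the KO libraries and at 93.3 and 90.2 CPM in the WT libraries, so it was mainly KO replicate 2 that was low. Between the KO libraries 0 of the 80 genes were called, with 17 at an unadjusted p under 0.05 (2922 of all tested genes).

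The libraries were checked for their cell type. VIM, a filament gene of HEK293T cells, had between 30597 and 36603 counts in every library, and NEFL, LIN28B and CDH2 had between 3658 and 6513, while the kidney lineage genes PAX2 and LHX1 were low, with 69 to 106 and 27 to 64 counts. The summed level of the 7 HEK293T markers was 845 and 811 CPM in the KO libraries and 804 and 836 CPM in the WT libraries, and 0 of the 7 were called, with 1 at an unadjusted p under 0.05. In KO replicate 2 against WT 1 of them, NEFM, was called at 0.49. Liver and fat cells make much lipid, and their defining markers were at or near 0. ALB, the albumin gene of hepatocytes, had 6 to 14 counts, SERPINA1 had 0 in every library and ADIPOQ had 0 or 1. The 7 hepatocyte markers summed to between 1.01 and 1.44 CPM, most of it CYP2E1, and the 5 adipocyte markers to between 1.18 and 1.37 CPM, nearly all PLIN1. Of blood cell markers, PTPRC had 0 or 1 counts and CD14 had 24 to 37. Of the 12 hepatocyte and adipocyte markers 3 passed the filter, and 0 of them were called or had an unadjusted p under 0.05.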

How the data were processed

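The authors aligned read pairs of 65 bases to T2T-CHM13v2.0 with Subread 2.0.6, and deposited featureCounts read pairs per RefSeq gene as raw counts. The command in the file header counts multi-mapping pairs, without strand, whereas the paper's methods give default options, which do not count them. Genes with copies or overlaps are therefore less certain. Pairs over more than 1 gene were left out. Symbols matched 28763 of 28775 identifiers, and 0 value columns went unused. Genes passing filterByExpr were tested in edgeR 4.0.16 (R 4.3.3, older quasi-likelihood form, TMM, Benjamini-Hochberg at 0.05 over 16675 genes) on genotype, and with each KO library as its own level. DESeq2 1.42.0 was an alternative. Standard errors are the fold change divided by the root of F. FPKM values divide CPM by exon length. The KO replicates are separate cultures with different gRNAs. The p-values of the genotype comparison rest on the spread between 2 libraries per genotype. Those for each KO library alone, and between the KO libraries, rest on the WT pair. In the edgeR fits the spread is moderated over all genes. Members and lists were chosen with earlier results of these data known. The genes named are MORC2, the 31 genes, genes of further lists called in any contrast, and up to 5 most changed per list. Scripts were tested on simulated data. Some genes of the further lists enter the counts and are not reported here singly.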

Additional observations from a re-analysis of the deposited data

How the results depend on the processing

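Under DESeq2, robust dispersions, the newer edgeR form, library size alone, RLE factors, loess offsets on gene length or abundance (span 0.3), other thresholds and other filters, 0 of the 31 genes were called higher and 0 lower in MORC2 KO against WT. Over these settings, the median log2 fold change of the 31 genes ran from -0.013 with RLE factors to 0.032 with library size alone. Single estimates changed sign in up to 7 genes, each uncalled. With 1 library left out, the median ran from -0.021 without WT replicate 1 to -0.00093 without WT replicate 2. With the replicate block, 0 higher and 0 lower genes were called among the 31 (median -0.0073, smallest adjusted p = 0.485), while calls over all genes went from 98 higher and 5 lower to 237 and 42. Same-numbered libraries share only a number, and the correlation of their deviations was -0.31 over 12492 genes, so a crossed pairing was added after seeing the data. Crossed replicate pairing called 1 of the 31 genes higher, INSIG1 (adjusted p = 0.015), and 1 lower, ACAT2 (adjusted p = 0.022). This pairing also called 6 of the 80 genes of the further lists, and 903 higher and 809 lower over all genes. Leaving out 1 library gave 0 to 1 genes higher and 0 to 4 lower, with the largest counts without KO replicate 1 (1397 higher and 2117 lower over all genes), where the lone KO library is assumed to vary like the WT. Over all genes, calls also rose to 208 higher and 41 lower with offsets on gene length and to 463 and 182 without a filter. Between KO replicate 2 and KO replicate 1, EBP was called with RLE factors and not in the main fit. Calls over all genes were not counted for that RLE fit. The causes were not tested. TM7SF2, with the fewest counts, had the largest standard error (0.093).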
